A study of Mus musculus with 6 samples.

Results

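CaMKIIN is a peptide that inhibits CaMKII (calcium/calmodulin-dependent kinase). The response of the thoracic aorta to angiotensin II (Ang-II) was examined in CaMKIIN transgenic mice labelled TG SM-CaMKIIN (here TG), SM for smooth muscle. It was taken from 3 of the 6 Illumina expression BeadChips of the study, namely the 2 arrays of Ang-II-infused TG mice and the 1 array of saline-infused TG mice. The other 3 arrays hold wild-type littermates (WT, C57 Bl/6 background), 2 infused with Ang-II and 1 with saline, and serve to set the responses of the genotypes side by side. They also enter the fit of the TG response, since all 6 arrays share the estimate of the spread, the detection filter and the choice of probe. Mice were 12 weeks old when osmotic minipumps were implanted, and received either 0.9% saline or Ang-II at 1.25 ug/kg/min in saline for 14 days. Each of the 4 groups consisted of 5 mice, whose RNA was pooled within the group. The titles of the Ang-II arrays call them biological replicates, and no label says which mice entered which array, so the p-values cover no more than the spread among these arrays, possibly a technical one. With a single TG saline array, its own spread is assumed to equal that of the Ang-II arrays, and precision is limited by the number of arrays. The sources used here do not name the promoter that drives the transgene. In a whole-tissue sample, more cells of a type and more RNA per cell cannot be told apart.

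Ang-II acts on the vessel wall mainly through the type 1 angiotensin receptor on smooth muscle cells, where it raises cytosolic calcium, activates kinases such as CaMKII and drives contraction, growth and matrix synthesis. Weeks of infusion thicken the adventitia with fibroblasts, collagen and macrophages. CaMKII holds calcium signals over time and phosphorylates channels, class II histone deacetylases and other regulators of transcription, which is why its inhibition in smooth muscle has been studied in hypertensive vessels. Levels below are normalized signals on a log2 scale, the brightest kept probe over the 6 arrays stands for its gene, and a difference is Ang-II minus saline ± its standard error. Other kept probes are not given for every gene. A gene rose or fell where limma gave an adjusted p under 0.05 over 16749 probes, which had a detection p under 0.01 on 2 or more of the 6 arrays. For a gene whose dimmer group did not stand well above background, only a lower limit of the fold is given, in the form at least N-fold.

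Of 16749 probes, 978 rose (5.84%) and 290 fell (1.73%) in TG aorta, and of 9837 genes 514 rose (5.23%) and 153 fell (1.56%). The same data normalized without background correction gave 63.7% rises among 2240 called probes, against 77.1% of 1268 as normalized by the authors. A fit of only the 3 TG arrays called 616 probes, of which 542 rose and 74 fell (88.0% rises). The TG Ang-II arrays correlated at r = 0.990 across probes, with an SD of 0.30 of their difference, and between 15393 and 15511 probes were detected on the 3 TG arrays. Markers of the labelled tissue were bright on all 6 arrays, among them Acta2 (15.02 to 15.19), which encodes smooth muscle actin, and the fibroblast proteoglycan Dcn (14.43 to 14.97). Transcripts abundant in heart muscle rose on the same arrays. Of 58 measured genes of a heart muscle list, 36 rose and 0 fell, and they supplied 16 of the 25 largest rises. Their summed signal was 38014 on the TG saline array, 85714 and 83296 on the TG Ang-II arrays and between 34628 and 35749 on the WT arrays. Nppa, which encodes atrial natriuretic peptide, stood at 4.58 in TG saline and at 9.30 and 9.11 in TG Ang-II, whereas Myl7, an atrial myosin light chain, stood at 6.48, 6.44 and 6.41. The WT arrays differed too, as 4 of the 58 heart genes rose and 21 fell in WT (median -0.59). Nppa read 7.67 in WT saline and was not detected on the WT Ang-II arrays. The part of heart muscle in the rises given below was not tested, and a refit of the TG response normalized without the lists of heart muscle, of fat cells and of red cells called 1203 probes. Outside the heart list 478 genes rose (4.89%) and 153 fell (1.56%), and these are described from here on.

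**Figure D1:**
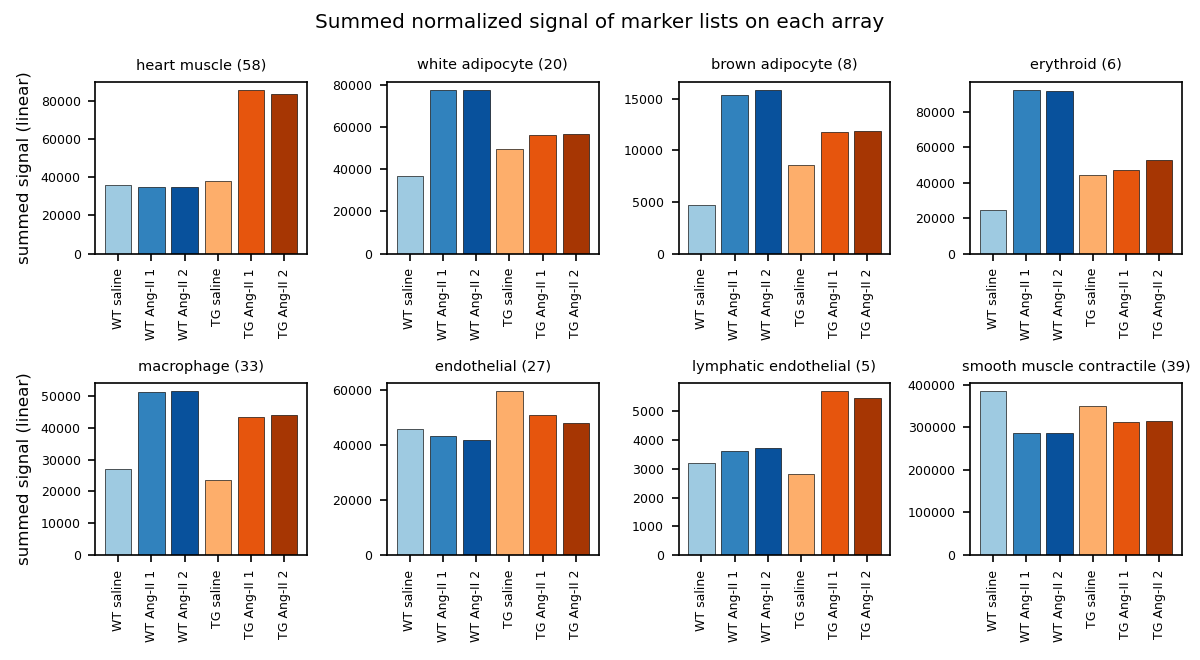
Summed normalized signal (linear scale, vertical axes from 0) of the measured genes of 8 marker lists, their number in brackets, on each of the 6 arrays. The heart muscle sum is 38014 on the TG saline array and 85714 and 83296 on the TG Ang-II arrays, and the fat and red cell sums of the TG arrays lie below those of the WT Ang-II arrays.

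The level of the single TG saline array bears on each call. On that array the highest signal of the 6 arrays was found for 2213 of all 9837 genes and for 123 of the 153 that fell (80.4%). It had the lowest of the 6 for 1477 of all genes and for 326 of the 514 that rose (63.4%). Against the WT saline array, 490 of the 514 rises still stood higher on both TG Ang-II arrays, and 127 of the 153 falls stood lower. At the edge of the detection filter, the 52 probes whose second-lowest detection p was 0.00962 were kept, with no normalized signal above 6.30. The 48 probes at 0.0107 were left out, with none above 6.66.

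Among the largest rises outside the heart list were RNA-binding proteins, secreted proteins and genes of striated muscle. Hnrnpl, an RNA-binding regulator of splicing, read 6.23 on the TG saline array and 11.76 and 11.71 on the TG Ang-II arrays, a rise of 5.50 ± 0.15 (45.2-fold, adjusted p = 0.000561). All 3 WT arrays lay between 11.33 and 11.96, so the TG saline array alone was low, and no other probe of Hnrnpl was kept. Acta1, the actin of skeletal muscle that is also made in the heart, went from 5.86 to 11.11 and 11.00 (5.19 ± 0.20, 36.6-fold, adjusted p = 0.000561). With Eef1a2, an elongation factor of muscle and neurons (2.94 ± 0.22, adjusted p = 0.00471), and Trim72, a membrane repair protein of striated muscle (at least 4.90-fold, adjusted p = 0.00976), Acta1 makes 3 striated muscle genes that the heart list did not hold. Rbm47, another RNA-binding protein, stood at 4.61 in saline and at 8.18 and 8.12 under Ang-II (at least 5.59-fold, adjusted p = 0.000759). The secreted C1q/TNF-related protein gene C1qtnf3 stood at 6.61 against 9.67 and 9.51 (2.98 ± 0.17, 7.88-fold, adjusted p = 0.00174), and both of its other kept probes rose too. Cthrc1, which fibroblasts secrete in injured arteries, was 5.26 against 8.16 and 8.17 (at least 5.66-fold, adjusted p = 0.00130). Ddah1, which degrades an endogenous inhibitor of nitric oxide synthase, was 7.06 against 9.46 on each Ang-II array (2.41 ± 0.15, 5.30-fold, adjusted p = 0.00273). In these last 4 genes the WT Ang-II arrays were raised as well, to between 8.56 and 9.79, and none of their genotype differences passed (adjusted p from 0.0874 to 0.489).

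Ddit4, which restrains the growth kinase complex mTORC1, rose from 7.49 to 10.00 and 10.35 (2.68 ± 0.22, adjusted p = 0.00603). Zbtb16, a zinc finger transcription factor, rose from 6.17 to 9.19 and 9.03 (2.95 ± 0.19, adjusted p = 0.00278), while the WT arrays stayed between 6.52 and 6.96, and its response differed between genotypes (3.24 ± 0.27, adjusted p = 0.0118). A4galt, which makes the glycolipid globotriaosylceramide, rose from 6.12 to 8.65 and 8.82 (2.61 ± 0.19, adjusted p = 0.00455). The WT arrays lay between 7.42 and 7.78 for A4galt, so the TG saline array was the lowest of the 6. Its response also differed from that in WT (2.40 ± 0.27, adjusted p = 0.0249), with a second probe of A4galt, at 0.88, not passing. Probes of a gene disagreed in other large rises too. Enah, a regulator of actin filaments, rose by 2.47 ± 0.24 on its brightest probe (adjusted p = 0.00805) and stood at 0.06 and -0.50 on the others, which did not pass. For Csnk2a1, the catalytic subunit of casein kinase 2, the brightest probe rose by 2.65 ± 0.24 (adjusted p = 0.00733), another rose by 1.27 and the third, at 0.40, did not pass. Prrc2c rose by 2.75 ± 0.23 (adjusted p = 0.00603) and on 2 of its 3 other probes, and Rc3h2, an RNA-binding ubiquitin ligase, rose at least 3.15-fold (adjusted p = 0.0163).

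Among the largest falls were several secreted proteins, 3 copies of the alpha-1-antitrypsin gene included. Pcnp, a nuclear protein, went from 9.21 in TG saline to 6.03 and 6.71 (-2.84 ± 0.32, adjusted p = 0.00957), yet its other 2 probes, at -0.15 and 0.92, did not pass. Scgb1a1, a secretoglobin of airway club cells, went from 8.28 to 5.54 and 5.99 (-2.52 ± 0.22, adjusted p = 0.00656). Scgb1a1 was not detected on TG Ang-II array 1, so this size is not exact. It was also higher in WT saline (7.21) than on the WT Ang-II arrays (5.27 and 5.31), and Sftpc, a surfactant protein of the lung, was not detected on any array. Serpina1d went from 9.44 to 7.52 and 7.54 (-1.91 ± 0.15, adjusted p = 0.00577) and Serpina1b from 9.82 to 8.29 and 7.92 (-1.72 ± 0.22, adjusted p = 0.0130). WT saline read 8.06 for Serpina1d and 8.12 for Serpina1b, the latter between the TG Ang-II arrays, and both genes fell in WT too. Serpina1e fell at least 2.27-fold (adjusted p = 0.0111). The copies of this family are near identical, so the probes may not tell them apart. Gkn3, a gastrokine, fell by 2.15 on the log2 scale, SE 0.32 (adjusted p = 0.0197), and Klk10, a kallikrein-related peptidase, by 2.07, SE 0.16 (adjusted p = 0.00515). Timp4, an inhibitor of metalloproteases, was 9.12 in saline against 7.26 and 7.33 (-1.82 ± 0.15, adjusted p = 0.00603). C7, a component of the complement membrane attack complex, was 8.73 against 7.2 and 7.17 (-1.55 ± 0.17, adjusted p = 0.00936), although its other probe, at -0.88, did not pass. Saa3, an acute-phase serum amyloid, was the one of these falls whose WT response ran the other way and passed. It stood at 7.14 in TG saline against 5.44 and 5.59, and at 4.68 in WT saline against 6.00 and 6.33 (at least 2.74-fold lower in TG and at least 1.45-fold higher in WT after Ang-II). Its genotype difference passed (adjusted p = 0.0146) but has no exact size, since the TG Ang-II and WT saline arrays were not well above background. Besides Fos, an immediate-early gene, the remaining 4 of the 15 were Upb1, a beta-ureidopropionase (-1.69 ± 0.18), Klhl12, an adaptor of a ubiquitin ligase (at least 2.25-fold lower), the orphan receptor Gpr21 (-1.61 ± 0.21) and the olfactory receptor Olfr330 (-1.57 ± 0.32). On TG Ang-II array 1 Upb1 (5.50) and Gpr21 (5.52) lay below 5.54, the lowest detected signal of any array. Their sizes are therefore not exact. The call of Olfr330 ended without TG Ang-II array 1 or 2 (adjusted p = 0.0683 and 0.0833).

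**Figure D2:**
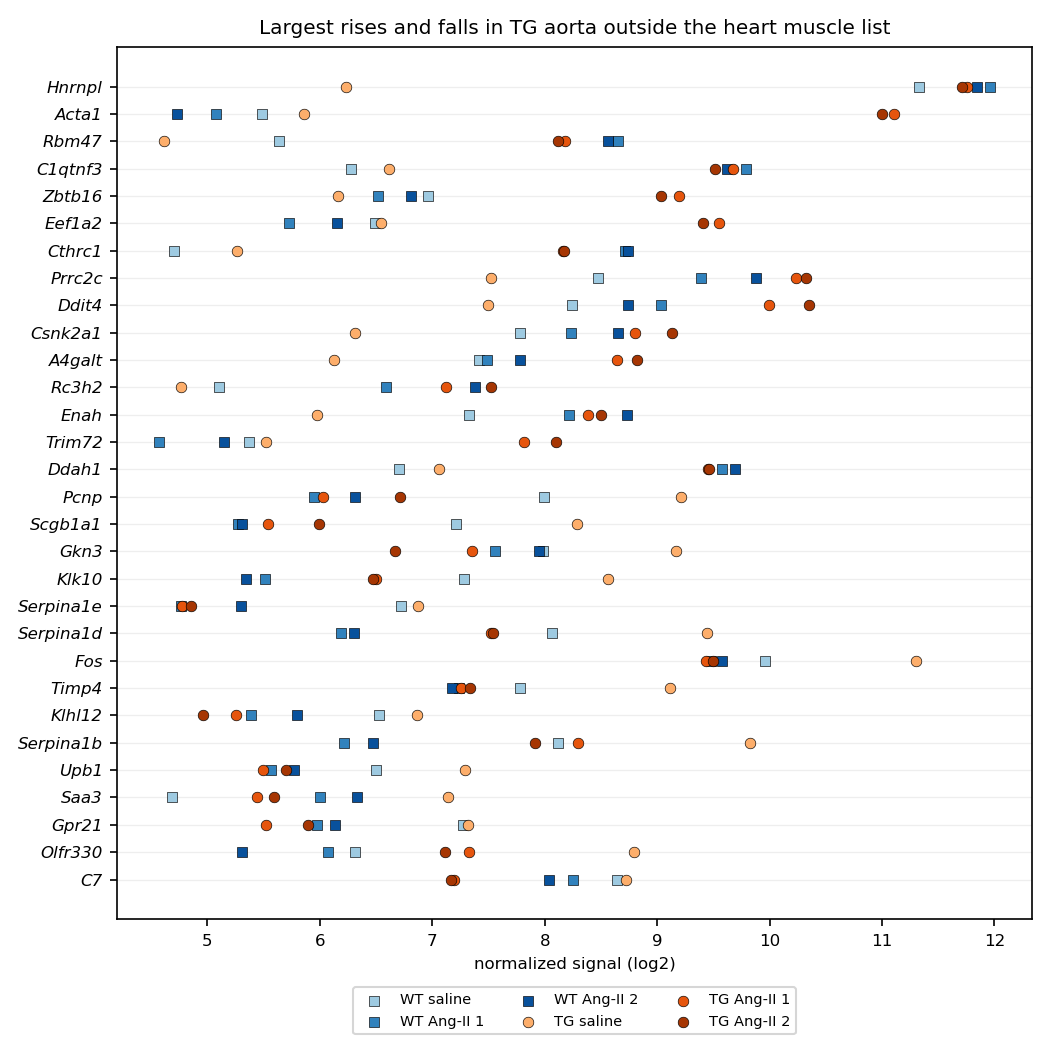
Normalized signal (log2, horizontal axis) on each of the 6 arrays of the 15 genes with the largest rises and the 15 with the largest falls in TG aorta outside the heart list. In each rise the TG saline array lies left of both TG Ang-II arrays, and for Hnrnpl it is the only array below 11.

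Among genes of the extracellular matrix, of 13 measured fibrillar, fibril-associated and type VIII collagens 6 rose and 0 fell. Their median was 0.80 against -0.06 over all genes, of which 5.23% rose and 1.56% fell. Col8a2 and Col8a1, which encode both chains of the short-chain type VIII collagen of vessels, behaved alike. Col8a2 read 7.97 in saline against 9.86 and 9.80 (1.86 ± 0.15, 3.64-fold, adjusted p = 0.00603, with a second probe at 0.51 not passing), and Col8a1 10.33 against 11.79 and 11.69 (1.41 ± 0.15, adjusted p = 0.00936). Col1a1, the main chain of type I collagen, stood at 12.20 in saline and at 13.86 and 13.74 under Ang-II (1.60 ± 0.16, adjusted p = 0.00805). Col5a2 rose by 1.12 ± 0.16 (adjusted p = 0.0185). Among 29 proteoglycans and matricellular proteins 9 rose and 1 fell (median 0.19). Fmod, a proteoglycan that binds collagen fibrils, rose from 8.31 to 9.92 and 9.91. Ccn4, a matricellular target of Wnt signalling, rose from 8.27 to 9.62 and 9.93 (1.50 ± 0.19, adjusted p = 0.0120, with a second probe at 0.60 not passing), and Tnxb, which encodes tenascin-X, from 8.85 to 10.08 and 10.15 (1.27 ± 0.15, adjusted p = 0.0113). The exception was Ccn1, a matricellular protein induced early by growth factors, which fell from 11.08 to 9.79 and 9.76 (-1.30 ± 0.17, adjusted p = 0.0144). Both of its other probes fell too.

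Of 28 proteases and inhibitors 5 rose and 1, Timp4, fell (median 0.18), and of 24 collagen-processing enzymes 2 rose (median 0.19). Counts in this paragraph stand beside 5.23% rises and 1.56% falls over all genes. Ctsk, the collagen-degrading cathepsin K, rose from 10.26 to 11.92 and 11.80, and the metalloprotease Adamts12 from 7.98 to 9.60 and 9.35 (1.50 ± 0.17, adjusted p = 0.0104). The gelatinase Mmp2 rose by 1.07 ± 0.16 (adjusted p = 0.0199) and the inhibitor Timp1 by 0.93 ± 0.17 (adjusted p = 0.0329), with a second Timp1 probe at 0.83 not passing. Lox, which cross-links collagen and elastin, rose by 1.04 ± 0.16 (adjusted p = 0.0206), and Mfap2, a glycoprotein of elastic microfibrils, by 1.16 ± 0.16 (adjusted p = 0.0159) as 1 of 12 elastic fibre genes, although its 2 other probes, at 0.84 and -0.67, did not pass. Of 16 basement membrane genes 2 rose, namely Nid1, which encodes nidogen-1 (1.06 ± 0.19, adjusted p = 0.0304), and Lamb1, a laminin chain (at least 1.28-fold, adjusted p = 0.0427). Of 24 fibroblast markers 5 rose and 0 fell (median 0.33), among them Cthrc1, the proteoglycan Lum (1.04 ± 0.16, adjusted p = 0.0214) and Dpt, which encodes dermatopontin (0.79 ± 0.17, adjusted p = 0.0473). Their summed signal was 88176 in TG saline against 122084 and 117457. Of 9 cartilage-type genes 2 rose, Matn4, a matrilin (1.54 ± 0.17, adjusted p = 0.00944), and Comp, a thrombospondin of cartilage and tendon (1.04 ± 0.18, adjusted p = 0.0280), and 1 fell, Cytl1 (-1.20 ± 0.16, adjusted p = 0.0141). Without TG Ang-II array 1 or 2 the rises fell to 4 each among proteoglycans and matricellular proteins, to 2 and 1 among fibroblast markers and to 3 and 4 among proteases. The calls of Mmp2 and Lox ended without array 1 (adjusted p = 0.0541 and 0.0517) and those of Lum and Nid1 without array 2 (0.0533 and 0.0623). Those of Timp1, Lamb1, Dpt, Comp and Loxl4, a lysyl oxidase-like enzyme (0.82 ± 0.17, adjusted p = 0.0442), ended without either. With all arrays a second probe of Loxl4, at 0.30, did not pass.

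**Figure D3:**
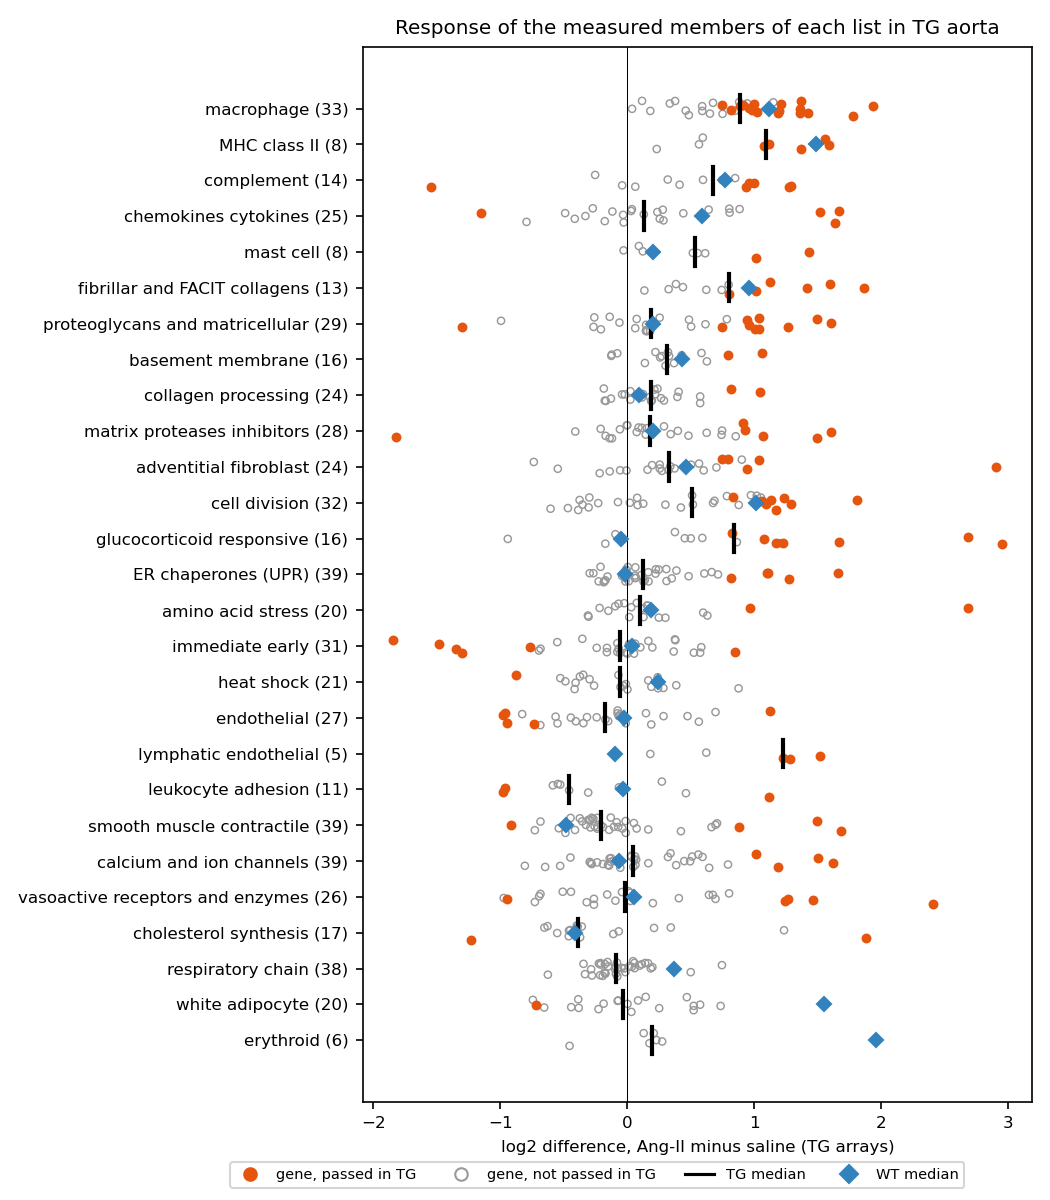
Log2 difference between Ang-II and saline in TG aorta (horizontal axis) of each measured gene of 27 lists, the number of genes in brackets. Filled points passed the test, open points did not, a bar marks the TG median and a diamond the WT median. The list labelled fibrillar and FACIT (fibril-associated) collagens also holds type VIII chains. Of the 27 lists drawn, which leave out heart muscle and brown adipocyte genes among others, the glucocorticoid-responsive, lymphatic endothelial, white adipocyte and erythroid lists have the TG and WT medians farthest apart.

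Of 33 macrophage markers 17 rose and 0 fell (median 0.89), and all 33 differences were above 0. Over all genes 5.23% rose and 1.56% fell. The summed macrophage signal went from 23465 on the TG saline array to 43317 and 44207. Clec4a3, a lectin-like receptor of myeloid cells, stood at 5.90 in saline and at 8.01 and 7.66 under Ang-II (1.93 ± 0.19, 3.82-fold, adjusted p = 0.00842). Mpeg1, a pore-forming protein of macrophages, stood at 7.80 against 9.59 and 9.55 (1.77 ± 0.15, adjusted p = 0.00603), and Ly86, a partner of a Toll-like receptor homologue, at 6.45 against 7.80 and 7.95 (1.42 ± 0.18, adjusted p = 0.0120). Both Ang-II arrays stood above the saline array in all 3 genes. Among 8 genes of MHC class II antigen presentation 5 rose (median 1.09). H2-Ab1 rose from 10.53 to 11.99 and 12.18, H2-Eb1 from 9.89 to 11.30 and 11.22 (1.37 ± 0.17, adjusted p = 0.0123) and the invariant chain Cd74 from 10.86 to 11.97 and 11.98 (1.11 ± 0.15, adjusted p = 0.0163). Of 14 complement genes 5 rose and C7 fell (median 0.67). C1qa and C1qc, chains of C1q made by macrophages, rose by 1.00 ± 0.19 and 0.96 ± 0.17 (adjusted p = 0.0362 and 0.0296), and Cfi, a protease that inactivates complement, by 1.29 ± 0.27 (adjusted p = 0.0455). C4b and C4a, near-identical copies of the fourth component, rose by 1.28 ± 0.17 and 0.93 ± 0.15, but the other probes of C4b stood at -0.57 and -0.89, the latter a fall.

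Counts in the other immune groups, several of them small lists, stand beside 5.23% rises and 1.56% falls over all genes. Of 25 chemokines and cytokines 3 rose and 1 fell (median 0.13). Ccl9, a macrophage chemokine, rose from 9.27 to 10.99 and 10.89 (1.67 ± 0.24, adjusted p = 0.0173), and Ccl8, which attracts monocytes, from 6.14 to 7.56 and 8.0 (1.64 ± 0.22, adjusted p = 0.0159). Cxcl1, which attracts neutrophils, fell from 7.79 to 6.59 and 6.68 (-1.15 ± 0.20, adjusted p = 0.0281). WT saline read 6.63 for Cxcl1, between the TG Ang-II arrays, and 10.19 for Ccl9, above the TG saline array. S100a8 and S100a9, subunits of the neutrophil protein calprotectin, were the 2 of 5 neutrophil markers to rise, S100a8 at least 2.78-fold (adjusted p = 0.00936) and S100a9 by 1.16 ± 0.24 (adjusted p = 0.0449). Cpa3, a carboxypeptidase of mast cells, rose by 1.02 ± 0.18 (adjusted p = 0.0296) and the tryptase Tpsab1 at least 1.42-fold (adjusted p = 0.0254), as 2 of 8 mast cell markers. A second Cpa3 probe of like brightness, at 0.50, did not pass. Thy1, the 1 of 5 lymphocyte markers that rose (0.90 ± 0.15, adjusted p = 0.0278), is also made by fibroblasts, and Cd3e, of the T-cell receptor, was 7.35 in saline against 7.18 and 7.29. Of 32 interferon-response genes 2 rose, Irf8, a factor of myeloid cells (1.08 ± 0.15, adjusted p = 0.0173), and the antiviral gene Rsad2 (0.93 ± 0.17, adjusted p = 0.0351). Without TG Ang-II array 1 or 2, 9 and 10 macrophage markers, 4 and 4 MHC class II genes and 2 and 1 complement genes rose. Named calls that ended were those of C1qa, C1qc, C4a, Cpa3, S100a9, Rsad2, Thy1 and Cxcl1 without either array (up to 0.0885 for S100a9) and that of Cfi without array 2 (adjusted p = 0.0660).

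Over all genes 5.23% rose and 1.56% fell. Chaperones of the endoplasmic reticulum (ER) held 5 rises and 0 falls among 39 measured genes of protein folding and export (median 0.13). The cell makes these proteins when secreted proteins outrun its folding capacity, and many of their promoters carry the ER stress response element (ERSE), a CCAAT box and a CCACG separated by 9 bases. Pdia4, a protein disulfide isomerase, read 9.38 on the TG saline array and 11.05 and 11.03 on the Ang-II arrays, while the 3 WT arrays lay between 10.97 and 11.15. Its response thus differed from that in WT (1.55 ± 0.22, adjusted p = 0.0481), with the TG saline array as the low one. Sdf2l1, a co-chaperone of the ER, showed the same order, 6.93 against 8.12 and 8.29 (1.27 ± 0.16, adjusted p = 0.0127) and WT arrays from 7.85 to 8.03, but here the genotype difference did not pass (adjusted p = 0.0611). Calr, which encodes the calcium-binding chaperone calreticulin, was 8.21 against 9.03 on each Ang-II array (0.82 ± 0.16, adjusted p = 0.0412), Kdelr2, a receptor that retrieves ER proteins, 7.99 against 9.15 and 9.04 (1.10 ± 0.16, adjusted p = 0.0173), and Hyou1, a large chaperone, rose at least 1.52-fold (adjusted p = 0.0445). For Hyou1 the TG saline array (5.16) was the lowest, and the WT arrays, from 6.80 to 7.16, lay above both TG Ang-II arrays (6.49 and 6.06). The best-known members did not pass. Hspa5, which encodes the chief chaperone BiP, was 8.36 against 8.62 and 9.07 (0.48 ± 0.42), Hsp90b1 13.50 against 13.77 and 13.56 (0.17 ± 0.18), Pdia3 0.67 ± 0.16 (adjusted p = 0.0622) and Dnajb9 0.72 ± 0.23. Calr and Hyou1 lost their calls without TG Ang-II array 1 (adjusted p = 0.0928 and 0.0799), Calr also without array 2 (0.0854). The promoters of 3 risers and of Hspa5 are shown from RefSeq (build GRCm38.p6, 250 bases before to 50 after the start, 5′ to 3′ on the gene's strand), since the ERSE is what this group is known for. Capitals mark the ERSE in Calr (chr8:84846882-84847181, minus strand, element on the opposite strand) and Hspa5 (chr2:34771840-34772139, plus strand). In Pdia4 (chr6:47813463-47813762, minus strand) and Sdf2l1 (chr16:17132334-17132633, minus strand), which held no ERSE of the spaced form, capitals mark each CCAAT and CCACG on either strand, with those on the opposite strand reading ATTGG and CGTGG.
Calr: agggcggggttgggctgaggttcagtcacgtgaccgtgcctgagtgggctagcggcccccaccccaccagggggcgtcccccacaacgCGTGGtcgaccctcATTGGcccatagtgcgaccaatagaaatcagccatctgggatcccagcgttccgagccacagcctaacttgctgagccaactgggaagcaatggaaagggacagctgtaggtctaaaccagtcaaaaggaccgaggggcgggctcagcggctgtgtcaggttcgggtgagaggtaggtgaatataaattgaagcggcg
Pdia4: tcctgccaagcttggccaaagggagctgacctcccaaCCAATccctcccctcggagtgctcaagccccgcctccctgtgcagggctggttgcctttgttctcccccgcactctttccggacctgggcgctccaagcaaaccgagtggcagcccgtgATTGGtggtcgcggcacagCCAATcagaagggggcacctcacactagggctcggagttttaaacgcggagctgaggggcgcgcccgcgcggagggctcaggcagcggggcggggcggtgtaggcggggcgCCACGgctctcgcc
Sdf2l1: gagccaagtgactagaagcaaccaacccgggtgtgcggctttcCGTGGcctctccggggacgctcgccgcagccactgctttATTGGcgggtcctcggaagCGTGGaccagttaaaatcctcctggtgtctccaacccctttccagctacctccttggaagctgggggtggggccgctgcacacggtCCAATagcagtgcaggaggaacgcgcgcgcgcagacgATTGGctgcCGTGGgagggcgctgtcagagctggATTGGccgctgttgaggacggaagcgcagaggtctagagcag
Hspa5: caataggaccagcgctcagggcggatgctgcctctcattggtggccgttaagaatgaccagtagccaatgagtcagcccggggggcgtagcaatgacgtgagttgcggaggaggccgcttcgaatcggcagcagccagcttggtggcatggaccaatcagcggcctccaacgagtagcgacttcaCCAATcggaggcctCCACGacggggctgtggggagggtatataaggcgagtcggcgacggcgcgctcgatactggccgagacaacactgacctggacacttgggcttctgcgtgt
The spaced motif, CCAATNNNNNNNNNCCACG on either strand, was present in 39 of 32851 promoters of this length (0.119%), while its parts CCAAT and CCACG were present in 37.4% and 32.8%. Of the 39 measured genes, 31 had a promoter in the table, and 7 of those held the spaced motif, 1 of the 3 risers with a promoter (Calr) among them.

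A list of 16 measured glucocorticoid-responsive genes, targets of the steroid hormone receptor in many tissues, held 7 rises and 0 falls, with a median of 0.84 against -0.06 over all genes. Like the other lists, it was written with earlier results of these data known, so its counts are descriptive. In TG 5.23% of all genes rose and 1.56% fell. In WT, where 6.09% of genes rose and 2.63% fell, 2 of the list rose and 2 fell with a median of -0.05. Tsc22d3, which encodes the anti-inflammatory leucine zipper GILZ, stood at 11.28 in TG saline and at 13.11 and 12.78 in TG Ang-II (1.66 ± 0.22, 3.17-fold, adjusted p = 0.0150), and its second probe rose by 1.56. The 3 WT arrays lay between 11.47 and 11.80, below both TG Ang-II arrays. Errfi1, a brake on the epidermal growth factor receptor, stood at 11.67 against 13.01 and 12.79 (1.23 ± 0.19, adjusted p = 0.0224). Fkbp5, a co-chaperone that binds the receptor complex, stood at 9.02 against 10.13 and 10.24 in TG (1.17 ± 0.19, adjusted p = 0.0246) and at 8.76 against 7.48 and 7.78 in WT, where it fell (-1.13 ± 0.19, adjusted p = 0.0246). Hif3a, a hypoxia-inducible factor subunit, was 6.50 against 7.57 and 7.58 in TG (1.08 ± 0.15, adjusted p = 0.0168) and 6.75 against 5.52 and 5.59 in WT (-1.20 ± 0.15, adjusted p = 0.0116), although its second probe, at 0.47 in TG, did not pass. The WT reading of 5.52 lay below 5.54, the lowest detected signal of any array, so the WT fall of Hif3a has no exact size. Zbtb16, Fkbp5 and Hif3a were the 3 of the list with a genotype difference that passed, with adjusted p = 0.0118, 0.0263 and 0.0179 (1.26% of all genes passed). Angptl4, a lipase inhibitor, rose in both genotypes, by 0.82 ± 0.15 (adjusted p = 0.0359) in TG and 1.34 ± 0.15 (adjusted p = 0.00918) in WT. The other 9 members gave no call. Among them the metallothionein Mt2 was 7.34 against 8.17 and 8.93 (1.21 ± 0.32, adjusted p = 0.0881), Mt1 14.34 against 14.94 on each array (0.59 ± 0.15), Pdk4, a kinase that restrains glucose oxidation, 10.67 against 11.35 and 11.72 (0.86 ± 0.20, adjusted p = 0.0610), Sgk1 12.11 against 12.60 and 12.63 (0.50 ± 0.15) and the clock gene Per1 9.68 against 10.05 on each (0.38 ± 0.15). The receptor gene Nr3c1 stood at 5.95 in TG saline and at 5.93 and 5.79 in TG Ang-II (-0.09 ± 0.17). Lcn2, a lipocalin, was the member lowest after Ang-II, 7.15 against 5.91 and 6.50 (-0.94 ± 0.28, adjusted p = 0.109). The list gave 7 rises and 0 falls without TG Ang-II array 1, 5 rises and 1 fall (Lcn2) without array 2, and 11 rises and 1 fall with no background correction. The calls of Errfi1 and Fkbp5 ended without array 1 and array 2 (adjusted p = 0.0534 and 0.0548), that of Angptl4 without either (0.0893 and 0.0727). Without a detection filter the count was 4.

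**Figure D4:**
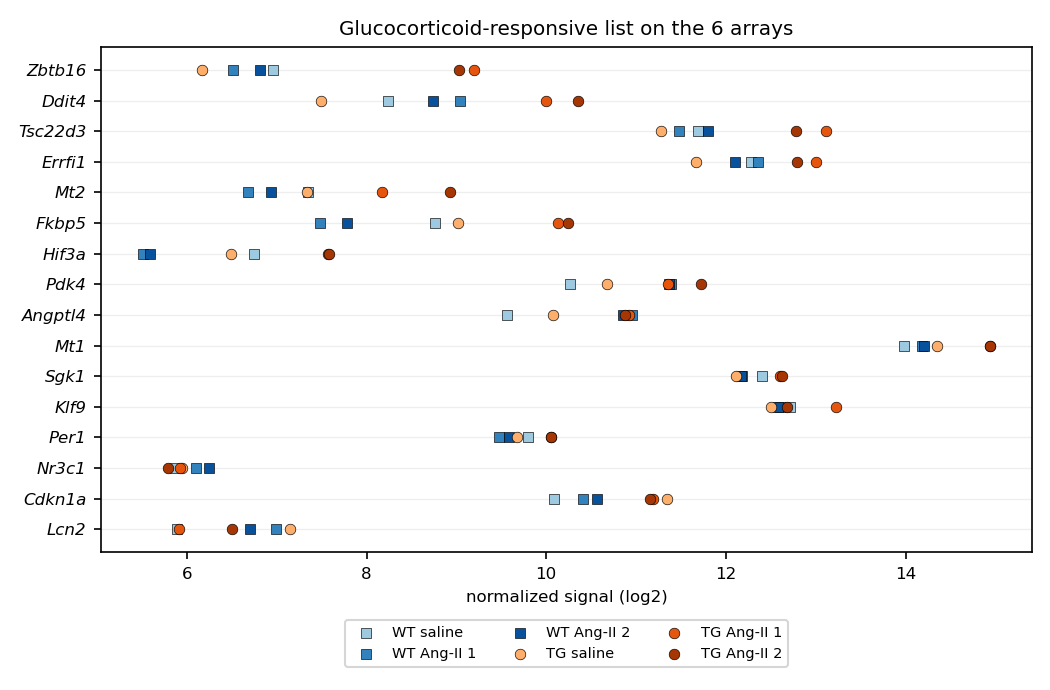
Normalized signal (log2, horizontal axis) of the 16 measured glucocorticoid-responsive genes on each of the 6 arrays. For Zbtb16, Tsc22d3, Fkbp5 and Hif3a both TG Ang-II arrays lie right of all other arrays.

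Ddit4 is also known as a gene of amino acid and energy stress. It was 1 of 2 rises among 20 measured genes of amino acid stress (median 0.10), beside Asns, which makes asparagine (0.97 ± 0.19, adjusted p = 0.0387). Over all genes 5.23% rose. A second probe of Asns, at 0.36, did not pass. Asns rose by the same 0.97 in WT, and its TG call ended without array 1 or 2 (adjusted p = 0.0729 and 0.0820).

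Immediate-early genes are the transcription factors and signalling proteins that cells switch on within minutes of a stimulus. They held 5 falls and 1 rise among 31 (median -0.06), beside 1.56% falls and 5.23% rises over all genes. Fos, a subunit of the AP-1 factor, stood at 11.30 in TG saline and at 9.43 and 9.50 in TG Ang-II (-1.84 ± 0.15, 3.58-fold lower). WT saline was 9.96 and the WT Ang-II arrays 9.48 and 9.58, so the TG saline array stood apart from the other 5. Fosb fell in both genotypes, from 8.27 to 6.78 and 7.05 in TG (-1.35 ± 0.20, adjusted p = 0.0185) and by 0.99 in WT, SE 0.20 (adjusted p = 0.0378). Atf3, a stress-induced factor, behaved differently. It was 8.64 in TG saline against 7.13 and 7.19 (-1.48 ± 0.18, adjusted p = 0.0111) and 8.82 in WT saline against 9.48 and 9.21, a genotype difference of -2.01 ± 0.25 (adjusted p = 0.0319). In Atf3 and Ccn1 the saline arrays of both genotypes were close and the TG Ang-II arrays were the low ones. Ccn1 stood at 11.22 in WT saline and at 11.37 and 11.61 in WT Ang-II, and its genotype difference did not pass (-1.57 ± 0.24, adjusted p = 0.0576). Egr3 fell from 8.48 to 7.74 and 7.69, and its relative Egr1, at 13.40 against 12.63 and 12.79, did not pass (-0.69 ± 0.17, adjusted p = 0.0683). Socs3, an inhibitor of cytokine signalling, was the rise (0.85 ± 0.16, adjusted p = 0.0359). Without TG Ang-II array 1 or 2, 4 fell and 0 rose, since Egr3 and Socs3 no longer passed (adjusted p up to 0.109 for Egr3 and 0.0796 for Socs3).

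Heat shock proteins gave 1 fall and 0 rises among 21 (median -0.05), beside 1.56% falls and 5.23% rises over all genes. Dnajb1, a co-chaperone of HSP70, was 12.19 in TG saline against 11.30 and 11.33 (-0.88 ± 0.15, adjusted p = 0.0286), and 12.19 in WT saline against 13.12 and 13.08 (0.91 ± 0.15, adjusted p = 0.0234). The genotype difference was -1.79 ± 0.21 (adjusted p = 0.0279). Hspa1a, an inducible HSP70, showed the same arrangement, 11.90 against 11.46 and 11.58 in TG and 11.72 against 13.18 and 13.16 in WT, with a genotype difference of -1.81 ± 0.22 (adjusted p = 0.0292). Its TG difference did not pass (-0.37 ± 0.15, adjusted p = 0.209), and that of Dnajb1 did not without array 1 or 2 (adjusted p = 0.0737 and 0.0630).

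Of the endothelial markers that passed, most of those of blood vessels, the inner cell layer of the aorta, fell after Ang-II, while those of lymphatic vessels rose. Of 27 endothelial genes 4 fell and 1 rose (median -0.17), while 1.56% of all genes fell and 5.23% rose. The summed endothelial signal was 59612 in TG saline, 50906 and 47959 in TG Ang-II and between 41857 and 45834 on the WT arrays. Pecam1, an adhesion protein of endothelial junctions, was 11.69 in saline against 10.66 and 10.77 (-0.98 ± 0.18, adjusted p = 0.0357), with its other probes at -0.38 and -1.18 not passing. Nos3, the endothelial nitric oxide synthase, was 9.88 against 9.02 and 8.85 (-0.95 ± 0.16, adjusted p = 0.0284), and both of its other probes fell. Icam2 fell by 0.96, SE 0.16 (adjusted p = 0.0283), and Vwf, which encodes von Willebrand factor, by 0.74, SE 0.15 (adjusted p = 0.0459). In all 4 genes the TG saline array had the highest signal of the 6 arrays, and WT saline lay at 11.02, 8.98, 9.86 and 10.78 in the order named. Cdh5, the cadherin of endothelial junctions, stood at 9.81 against 10.03 and 9.88 (0.15 ± 0.16), and Robo4, a guidance receptor of endothelium, rose from 8.20 to 9.35 and 9.29 (1.13 ± 0.16, adjusted p = 0.0175). Among 11 leukocyte adhesion genes, which share Pecam1 and Icam2, 2 fell and 1 rose (median -0.46). The rise was Selplg, a selectin ligand carried by leukocytes (1.11 ± 0.22, adjusted p = 0.0428). The endothelial adhesion molecules Selp (-0.58 ± 0.18), Icam1 (-0.55 ± 0.17) and Vcam1 (-0.46 ± 0.16) did not pass, with adjusted p from 0.112 to 0.148. These falls were sensitive to single arrays. The endothelial count fell to 1 without TG Ang-II array 1 and 0 without array 2, Nos3 losing its call only without array 2 (adjusted p = 0.0672), and Pecam1, Icam2, Vwf and Selplg without either (up to 0.109 for Vwf).

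Of 5 measured lymphatic endothelial markers 3 rose and 0 fell (median 1.23, against -0.10 in WT), while 5.23% of all genes rose and 1.56% fell. The sum of the 5 went from 2824 in TG saline to 5698 and 5477, with the WT arrays between 3203 and 3737. Ccl21a, a chemokine that draws dendritic cells into lymphatic vessels, stood at 8.48 in TG saline and at 10.10 and 9.90 in TG Ang-II, while the 3 WT arrays lay between 8.41 and 8.54. Its genotype difference was 1.40 ± 0.23 (adjusted p = 0.0666). Mmrn1, a matrix protein of lymphatic endothelium and platelets, was 7.13 against 8.42 and 8.39 in TG (1.28 ± 0.15, adjusted p = 0.0106) and 7.53 against 6.61 and 6.55 in WT, where it fell (-0.94 ± 0.15, adjusted p = 0.0214). This genotype difference passed (2.22 ± 0.21, adjusted p = 0.0180). Pdpn, which encodes podoplanin and is also made by fibroblasts, rose from 10.28 to 11.51 on each array (1.23 ± 0.15, adjusted p = 0.0113). Pdpn rose in WT as well (0.74 ± 0.15, adjusted p = 0.0393). Of the lymphatic markers named here Pdpn was the brightest, so it weighs most in the sum. Reln, which encodes reelin, was 7.35 against 7.92 and 8.02 in TG (0.62 ± 0.17, adjusted p = 0.0976). The 3 rises passed without either Ang-II array.

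Contractile genes of smooth muscle, the cells that the label of the transgene refers to, stand beside 5.23% rises and 1.56% falls over all genes. Of 39 measured genes 3 rose and 1 fell (median -0.21, against -0.48 in WT), and their sum was 349543 in TG saline against 312289 and 314585. Myh11, the smooth muscle myosin, was 14.11 against 13.81 and 13.95 (-0.23 ± 0.16), Tagln, which encodes transgelin, 12.55 against 12.28 and 12.31 (-0.26 ± 0.15), and Cnn1, which encodes calponin, 8.41 against 7.82 and 8.12 (-0.45 ± 0.19). Acta2 differed by 0.07 ± 0.15, and none of these 4 passed. The fall was Ppp1r14a, an inhibitor of myosin phosphatase, 11.96 against 11.07 and 11.03 (-0.91 ± 0.15, adjusted p = 0.0255), with its second probe at -0.44 not passing. Myocd, the coactivator myocardin that drives contractile genes in smooth muscle and heart, rose from 9.65 to 11.17 and 11.13 (1.49 ± 0.17, adjusted p = 0.00944), as did its second probe. Ppp1r12a, the targeting subunit of myosin phosphatase, rose by 0.88 ± 0.18 (adjusted p = 0.0449) with its second probe at -0.31. WT saline read 11.01 for Ppp1r12a, between the TG Ang-II arrays (11.23 and 10.98). Casq2, the calcium store protein calsequestrin of heart and smooth muscle, is on both the contractile and the heart list and rose at least 2.47-fold (adjusted p = 0.0159). The calls of Ppp1r14a and Ppp1r12a ended without array 1 or 2 (up to 0.103 for Ppp1r12a).

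No CaMKII gene described here passed. Camk2d, Camk2g and Camk2b differed by -0.14 ± 0.16, -0.13 ± 0.16 and -0.24 ± 0.17 (adjusted p = 0.636, 0.662 and 0.444), and Camk2n1, an endogenous inhibitor of the kinase, read 11.51 in saline and 11.53 and 11.60 under Ang-II. Of 39 genes of calcium handling and ion channels 4 rose and 0 fell (median 0.05), while 5.23% of all genes rose and 1.56% fell. Hdac4, a class II histone deacetylase that CaMKII phosphorylates, rose from 6.65 to 8.32 and 8.23 (1.62 ± 0.15, 3.08-fold, adjusted p = 0.00801), with the WT arrays between 7.68 and 8.04 and a genotype difference of 1.30 ± 0.22 that did not pass (adjusted p = 0.0666). Mef2c, a transcription factor that class II deacetylases repress, rose from 9.44 to 10.52 and 10.38 (1.02 ± 0.16, adjusted p = 0.0235), and 1 of its 3 other probes rose by 1.59. In Hdac4 and Mef2c the TG saline array was again the lowest of the 6. Kcna5, a voltage-gated potassium channel, rose by 1.19 ± 0.19 (adjusted p = 0.0254), and Cacnb2, an accessory subunit of calcium channels, at least 1.90-fold (adjusted p = 0.0137), its other probes at 0.28 and 0.57 not passing. Without array 1 the calls of Mef2c and Kcna5 ended (adjusted p = 0.0628 and 0.0615).

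Receptors and enzymes of vascular tone gave 4 rises and 1 fall, that of Nos3, among 26 genes (median -0.02). Counts of this and the next 3 lists stand beside 5.23% rises and 1.56% falls over all genes. Besides Ddah1, Ednrb, the endothelin B receptor, rose from 8.70 to 10.21 and 10.12 (1.46 ± 0.15, 2.76-fold, adjusted p = 0.00919) with its second probe, and Rgs5, a brake on G-protein signalling in pericytes and smooth muscle, from 8.99 to 10.23 and 10.29 (1.27 ± 0.16, adjusted p = 0.0120). Aplnr, the apelin receptor, rose by 1.24 ± 0.25 (adjusted p = 0.0444), though not without array 1 (0.0694). Agtr1a, the receptor of Ang-II, was 7.77 in saline against 7.57 and 8.03 (0.02 ± 0.23, adjusted p = 0.961). Of 25 genes of insulin-like, platelet-derived and fibroblast growth factor signalling 2 rose and 1 fell (median 0.12). Igf1 and the binding protein Igfbp3 rose by 1.29 ± 0.17 (adjusted p = 0.0132) and 1.46 ± 0.16 (adjusted p = 0.00936), and Igf2 fell from 11.01 to 10.15 and 10.01 (-0.93 ± 0.16, adjusted p = 0.0281). For Igf2 the WT saline array read 10.08, between the TG Ang-II arrays. The TGF-beta list gave 3 rises in 28 (median 0.11), Skil, a feedback repressor of Smads (1.10 ± 0.16, adjusted p = 0.0189), Fst, which encodes the activin trap follistatin (1.04 ± 0.19, adjusted p = 0.0366), and the ligand Tgfb2 (0.95 ± 0.20, adjusted p = 0.0497). Among 13 integrins 2 rose. Itga11, a collagen receptor subunit of fibroblasts, rose in both genotypes (0.99 ± 0.16, adjusted p = 0.0255 in TG), with a second probe at 0.70 not passing in TG. Itga5, the fibronectin receptor subunit, was 9.44 against 10.16 and 10.30 in TG but 10.40 against 9.47 and 9.49 in WT (genotype difference 1.70 ± 0.22, adjusted p = 0.0368). Calls that ended without array 1 or 2 were those of Igf2, Fst and Itga5 (both arrays, up to 0.102 for Itga5) and of Itga11, Skil and Tgfb2 (array 1, up to 0.101 for Tgfb2).

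Of 32 measured cell division genes 8 rose and 0 fell, beside 5.23% rises and 1.56% falls over all genes. The median of the 32 was 0.51. The median was 0.13 with 12 dim members set at their lower limit or, like the 3 dim in both groups, left out. Prc1, which bundles spindle microtubules at cytokinesis, stood at 7.10 in saline and at 8.97 and 8.86 under Ang-II (1.81 ± 0.15, 3.51-fold, adjusted p = 0.00603). Cdc20, an activator of the anaphase-promoting complex, rose from 6.18 to 7.48 and 7.22 (1.17 ± 0.18, adjusted p = 0.0208), with its other probes at 0.03 and 0.63. Kif22, a chromosome kinesin, and Cdca8, of the chromosomal passenger complex, rose at least 2.39-fold and 2.28-fold (adjusted p = 0.0153 and 0.0174). Without array 1 or 2 the count was 5 and 7.

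Calls in metabolic and housekeeping lists can be read beside 5.23% rises and 1.56% falls over all genes. No respiratory chain gene among 38 passed by limma (0 rose and 0 fell, median -0.08), and at an unadjusted p under 0.05, which 22.7% of all genes reached, 1 was higher and 0 were lower. Of 24 ribosomal protein genes 1, Rpl23, rose (0.74 ± 0.15, adjusted p = 0.0458, its other probes at 0.15 and 0.07). Of 29 antioxidant and metal-binding genes 0 rose and 0 fell by limma (unadjusted p under 0.05 in 6 higher and 2 lower genes). Cholesterol synthesis had a median of -0.39 over 17 genes, as in WT (-0.41). In it Insig1, which holds the pathway back, rose from 7.0 to 8.61 and 9.14 (1.88 ± 0.26, adjusted p = 0.0161), and Nsdhl, an enzyme of the pathway, fell at least 1.67-fold (adjusted p = 0.0388). Among 8 Schwann cell and neural genes Ncam1, an adhesion molecule, rose by 0.90 ± 0.16 (adjusted p = 0.0299), while its other 3 probes stood between -0.15 and 0.11, and Stmn2, a microtubule regulator of neurons, fell from 8.88 to 7.62 and 7.15 (-1.49 ± 0.23, adjusted p = 0.0225). WT saline read 12.30 for Ncam1, above both TG Ang-II arrays (12.00 and 12.02). For Stmn2, which fell in WT too, WT saline read 7.42, between the TG Ang-II arrays. Of 14 clock genes Usp2 rose (0.78 ± 0.16, adjusted p = 0.0457). The calls of Rpl23, Nsdhl, Ncam1 and Usp2 ended without array 1 or 2 (up to 0.116 for Rpl23).

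Fat and red cell transcripts gave few calls in TG aorta, where WT aorta gave many. Over all genes 5.23% rose and 1.56% fell in TG, and 6.09% and 2.63% in WT. Of 20 white adipocyte genes 0 rose and 1, Lep, which encodes leptin, fell (-0.72 ± 0.15, adjusted p = 0.0459, ending without either array), with a median of -0.03 against 1.55 in WT, where 13 rose and 1 fell. The genotype difference passed in 7 of the 20. Of 8 brown adipocyte genes 1 rose, Fabp3 (1.44 ± 0.16, adjusted p = 0.00936), which the heart list also holds. Ucp1, the uncoupling protein of brown fat, was 10.46 in TG saline against 10.59 and 10.64, and 8.93 in WT saline against 11.62 and 11.76 (genotype difference -2.60 ± 0.22, adjusted p = 0.0126). Of 6 erythroid genes none passed in TG (0 rose and 0 fell by limma, and 0 at an unadjusted p under 0.05), while 5 rose in WT and 5 genotype differences passed. Alas2, which starts heme synthesis in red cell precursors, was 8.16 in TG saline against 8.34 and 8.43, and 7.33 in WT saline against 9.98 and 9.85 (genotype difference -2.36 ± 0.22, adjusted p = 0.0180). The TG saline array lay above the WT saline array in the fat and red cell sums (49569 against 36740 for white adipocyte genes and 44522 against 24341 for erythroid genes).

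Set against each other, the responses of TG and WT aorta, which share no array, correlated across genes at r = 0.419, and at 0.496 without the heart list. These values describe genes, which are not independent replicates. In WT 599 genes rose and 259 fell. Of the 514 genes that rose in TG 218 also rose in WT (42.4% of the TG rises and 36.4% of the WT rises), and of the 153 that fell 29 also fell in WT (19.0% and 11.2%). Called in opposite directions were 25 genes, 16 of them on the heart list. The other 9 comprised 4 that rose in TG and fell in WT, Fkbp5, Hif3a, Mmrn1 and Itga5, and 5 that fell in TG and rose in WT, Saa3, Dnajb1, Dusp4, Ffar4 and Fam184b. Dusp4, a phosphatase that inactivates MAP kinases, was 7.97 in TG saline against 7.05 and 7.16, and 6.63 in WT saline against 8.25 and 8.0 (genotype difference -2.36 ± 0.25, adjusted p = 0.0224). A second probe of Dusp4, at -0.35 in TG, did not pass. Ffar4, a receptor for long-chain fatty acids, was 7.78 against 6.90 and 7.0 in TG, and 6.57 against 8.12 and 7.98 in WT (-2.31 ± 0.23, adjusted p = 0.0190). In Dusp4 and Ffar4 the TG saline array stood nearer to the WT Ang-II arrays than to the TG Ang-II arrays. Without TG Ang-II array 1 or 2 their TG falls and that of Fam184b did not pass (up to 0.104 for Dusp4).

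Outside the heart list 30 genes passed both the TG response and the genotype difference, 24 of them rises and 6 falls. Angptl7, a secreted angiopoietin-like protein, was 10.59 in TG saline against 12.48 and 12.27, with all 3 WT arrays between 10.27 and 10.83 (genotype difference 2.23 ± 0.26, adjusted p = 0.0280), and its second probe rose by 1.77. Sphk1, which makes the lipid signal sphingosine 1-phosphate, was 8.87 against 10.51 and 10.50, with the WT arrays between 9.39 and 9.58 (1.46 ± 0.21, adjusted p = 0.0481). Cish, an inhibitor of cytokine receptors, was 7.97 against 9.41 and 9.27, with the WT arrays from 8.13 to 8.71 (1.87 ± 0.23, adjusted p = 0.0315), and Irs2, a docking protein of the insulin receptor, 8.18 against 9.55 and 9.61, with the WT arrays from 9.05 to 9.25 (1.56 ± 0.22, adjusted p = 0.0429). In these 4 genes both TG Ang-II arrays lay above all other arrays, and in Sphk1, Cish and Irs2 the TG saline array lay below all others. Cemip, a gene of hyaluronan breakdown, rose in both genotypes, in TG from 4.53 to 5.82 and 5.84 (at least 1.12-fold, adjusted p = 0.00998) and in WT from 4.58 to 8.26 and 8.25 (at least 6.16-fold, adjusted p = 0.00118). Its genotype difference passed (adjusted p = 0.0140) but has no exact size, since neither saline array was well above background for this gene. These 5 genes and Dusp4, Ffar4 and Fam184b were chosen after their values were seen.

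**Figure D5:**
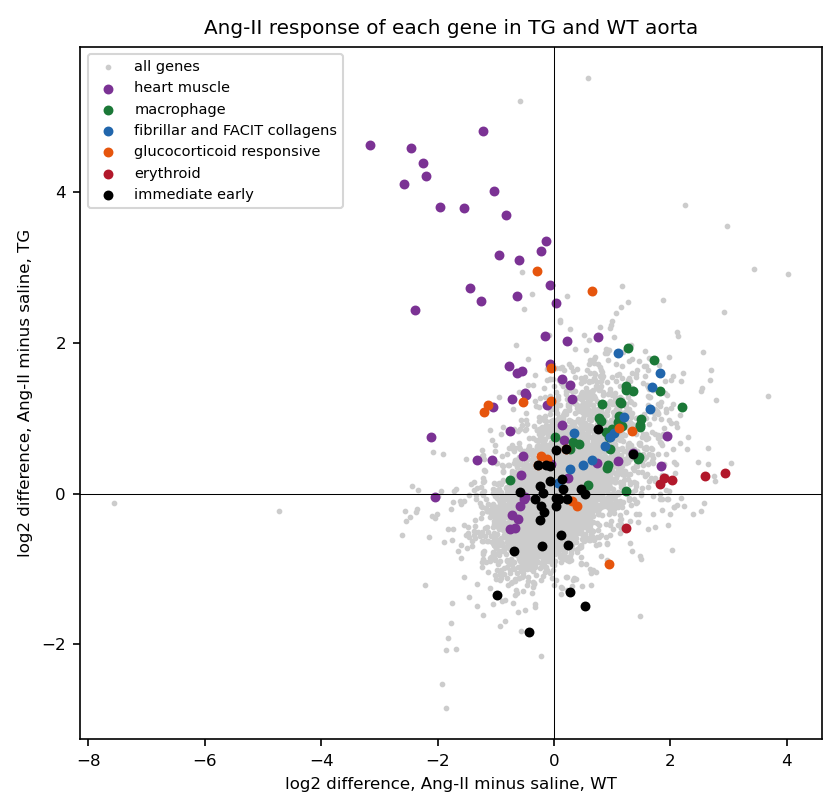
Log2 difference between Ang-II and saline of each of 9837 genes in WT (horizontal axis) and TG aorta (vertical axis), with 6 lists in colour. All 13 collagens (type VIII included) and 32 of 33 macrophage genes lie above 0 on both axes, 50 of 58 heart muscle genes lie above 0 in TG and 14 in WT, and erythroid genes lie near 0 in TG and up to 2.93 in WT.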

How the data were processed

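RNA of pooled thoracic aortas was measured on 6 Illumina BeadChips, and the authors deposited raw intensities with detection p-values and a table of normalized log2 values. Per the submitters' processing notes, GenomeStudio 2011.1 and limma 3.22.1 were used. The deposited log2 values equal limma's neqc (offset 16) of the deposited intensities within 5e-09 over 271686 values, and were used as given. Median raw intensity was 110.0 to 130.5 per array. The authors also deposited, per the file headers, the count of beads behind each probe (median 41 to 43) and the standard error of the bead signal, which was not used.

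Genes were named from the platform annotation, which gave 1 symbol to 34885 probes, several to 18 and none to 10378 of 45281. Of the 16749 probes kept, 14523 had 1 symbol, covering 9837 genes. limma 3.58.1 in R 4.3.3 fitted 4 group means over the 6 arrays (2 residual degrees of freedom, prior 3.75), with eBayes and Benjamini-Hochberg adjustment over all kept probes. The fit was also run on simulated independent arrays with variances drawn from its own prior. Such data cannot address the pooling or the single saline arrays. The lower-bound folds set the dim group at the lowest signal among probes detected on the array, or at its own signal where higher.

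Genes were named by a rule: the 15 genes that rose most and the 15 that fell most among those passing with 1 direction on both arrays, heart muscle list left out, and of each of 45 lists up to 4 members that passed, or 2 where none passed, with 14 fixed genes, of which Cd68 had no named probe. The members, lists and tests were chosen with earlier results of these data known. Outside the rule, Calr, Socs3, Hspa1a, Ucp1, Alas2, Mt1, Pdk4, Nr3c1, Lcn2, Reln and those so described above were chosen after their values were seen. Promoters came from RefSeq (GRCm38.p6). Alternatives were another normalization, offset, detection filter, variance prior, array weights, each Ang-II array left out, a replicate block, only the TG arrays, and the mean over all probes of a gene.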

Additional observations from a re-analysis of the deposited data

Results flagged for a closer look

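The responses of TG and WT aorta differed by limma's interaction term (adjusted p under 0.05, 124 of 9837 genes, 1.26%) for 32 of the genes named, and the difference below is the TG response minus the WT response on the log2 scale. For Nppa, Myl3, Myl2, Acta1, Trim72, Casq2, Saa3, Slc4a1, Cemip and Fam184b at least 1 group was not well above background, so their values are differences of measured readings, with no exact size and no rank. Hif3a on WT Ang-II array 1 and Cox6a2 on WT Ang-II array 2 lay below the lowest detected signal of any array. Their values are not exact either. Heart muscle genes had positive differences, with Nppa at 7.78, Cox6a2 at 7.03, Myl3 at 6.63, Myl2 at 6.03, Casq2 at 2.46 and Myl7 at 1.99. Nppa, Cox6a2, Myl3 and Myl2 rose in TG and fell in WT, and in Myl7 the TG difference was -0.05 and the WT difference -2.04. Striated muscle genes outside that list were Acta1 at 5.77, Eef1a2 at 3.49 and Trim72 at 2.96. Hnrnpl stood at 4.92, with a low TG saline array.

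Positive differences were also found in Zbtb16 (3.24), Fkbp5 (2.30) and Hif3a (2.27) of the glucocorticoid-responsive list, in A4galt (2.40), Angptl7 (2.23), Mmrn1 (2.22), Cish (1.87) and Itga5 (1.70), and in Irs2 (1.56), Pdia4 (1.55) and Sphk1 (1.46). Negative differences were found in Saa3 (-3.11), in the red cell genes Slc4a1 (-2.66) and Alas2 (-2.36), in Ucp1 (-2.60) of brown fat and in Cemip (-2.38). Dusp4 (-2.36), Ffar4 (-2.31), Fam184b (-1.85) and the stress genes Atf3 (-2.01), Hspa1a (-1.81) and Dnajb1 (-1.79) were negative too. Each of these differences includes the single saline array of both genotypes.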

How the results depend on the processing

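With 1 saline array per genotype, 2 residual degrees of freedom and pooled RNA, the spread rests on both pairs of Ang-II arrays. Against 1268, 1518 and 199 probes called in the TG response, the WT response and the genotype difference, quantile normalization without background correction called 2240, 2939 and 730, a trended robust prior 2303, 3015 and 775 (65.4% rises in TG), no detection filter 604, 781 and 60, and an offset of 50 called 2323 in WT and 446 in the difference. Normalization without the heart muscle, fat and red cell lists called 76 in the difference, and a fit of only the 3 TG arrays 616 in TG (542 rises and 74 falls), where 54 of the called named genes no longer passed. Leaving out 1 Ang-II array at a time gave 616 to 877 for TG, 224 to 1631 for WT and 28 to 133 for the difference. The lowest TG and WT counts came without a WT Ang-II array, where the spread comes from the TG Ang-II arrays alone. The numbers of the Ang-II arrays carry no stated pairing, and the deviations of same-numbered arrays correlated at 0.115. With the replicate block 1388, 1642 and 158 probes were called. Of 146 called genes named by the rule or added, 56 lost their call without TG Ang-II array 1 or 2, 50 without array 1 and 45 without array 2. Among named genes the direction turned in 2, neither of them called, with Agtr1a at -0.20 without TG Ang-II array 2 and 0.25 without array 1, Hbb-b2 at 0.10 without array 1 and -1.0 without array 2. The medians of 6 lists changed sign in 8 instances, that of integrins from -0.07 to 0.12 and that of clock genes from 0.06 to -0.01 with the mean over all probes of a gene, clock genes also to -0.07 and white adipocyte genes from -0.03 to 0.003 with detection on all 6 arrays. Calcium and ion channels went from 0.05 to -0.08 without TG Ang-II array 1, Schwann cell and neural genes from -0.03 to 0.02 without array 2, and antioxidant genes from -0.002 to 0.003 under 2 settings, the mean over probes and the normalization without the lists named above. The cause of these shifts was not tested.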
